A study of Mus musculus with 10 samples.

Results

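The 10 genes described here encode enzymes of the urea cycle and of amino acid catabolism that hepatocytes near the portal vein are known for. They are Cps1, Otc, Ass1, Asl and Arg1 of the urea cycle, and Hal, Sds, Gls2, Etnppl and Tat, which break down histidine, serine, glutamine, phosphoethanolamine and tyrosine. They were chosen by gene symbol, 10 of the 24537 symbols in the count table, and all 10 passed the filter on low counts that left 13909 genes to test. RNA was sequenced from 10 whole livers of male mice, and every animal had received AAV8-TBG-saCas9-U6-sg, a virus that carries a small Cas9 under the hepatocyte promoter TBG and a guide RNA. The young control livers (3) came from mice aged 9 months that were given a Rosa26 guide at 7 months. The old control livers (3) came from mice aged 25 months that were given the same Rosa26 guide at 23 months, and the old knockout livers (4) from mice of that age given a Cd44 guide at 23 months. Knockout replicates 1 and 2 carry the label of guide 4, and replicates 3 and 4 that of guide 2. The young and old control mice therefore differ in age but share the virus, and no group without virus was analysed here. TBG limits the editing to hepatocytes, so the other cells of the liver keep Cd44, and whole-liver RNA holds both.

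Ammonia from amino acids is made into urea in periportal hepatocytes. Cps1 joins ammonia and bicarbonate in the mitochondrion to carbamoyl phosphate, with N-acetylglutamate from Nags as its obligate activator. Otc makes citrulline, Ass1 and Asl turn it into arginine in the cytosol, and Arg1 splits arginine into urea and ornithine. Gls2, the liver glutaminase, releases ammonia beside Cps1, whereas Glul around the central vein binds what is left. Glucagon, glucocorticoids and fasting are known to raise many of these enzymes, Tat and Sds being classic examples.

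Total counts lay between 15821198 and 21710228 per liver, so counting error is small for all 10 genes. Cd44 RNA was 16.6, 11.1 and 10.1 CPM (counts scaled to library size with TMM factors) in the young livers, 14.2, 30.0 and 25.9 in the old controls and 18.9, 29.0, 17.6 and 13.1 in the knockout livers. The knockout and old control ranges overlap (log2 difference -0.25, adjusted p = 0.896 by edgeR's quasi-likelihood test), so this RNA gives no check of the editing and the livers are called knockout by their label. Old control replicate 3 stands apart. Its library name lies outside the run of the other 9, and leaving it out raised the genes called with age from 3172 to 5327. Unless another fit or test is named, adjusted p-values below come from the same test, with Benjamini-Hochberg adjustment over 13909 genes. A gene is called at an adjusted p under 0.05. Fits that leave out livers adjust over the genes that pass the filter in them, and DESeq2 values come from its Wald test and own adjustment. Nothing beyond separate library names says that the livers of a group are separate animals. The p-values weigh each difference against the spread between these livers, estimated over all groups in the fit.

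Promoter windows were at hand for 5 of the 10 genes, and 4 are shown: those of Otc, Etnppl and Tat, whose RNA was lower in the old livers, and that of Hal, whose RNA did not pass the test. They are RefSeq sequences on GRCm38.p6, plus strand, each from 250 bases before to 50 bases after a start site. They lie at chrX:10252055-10252354 (Otc), chr3:130617198-130617497 (Etnppl), chr8:109990186-109990485 (Tat) and chr10:93488518-93488817 (Hal). Capitals mark matches on either strand to the motifs described after the sequences.
Otc: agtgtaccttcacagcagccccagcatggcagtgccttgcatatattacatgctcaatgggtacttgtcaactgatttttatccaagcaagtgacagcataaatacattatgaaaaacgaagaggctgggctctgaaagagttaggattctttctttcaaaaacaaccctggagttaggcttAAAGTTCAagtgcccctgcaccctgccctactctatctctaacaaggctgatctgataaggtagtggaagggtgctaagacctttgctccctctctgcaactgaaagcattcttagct
Etnppl: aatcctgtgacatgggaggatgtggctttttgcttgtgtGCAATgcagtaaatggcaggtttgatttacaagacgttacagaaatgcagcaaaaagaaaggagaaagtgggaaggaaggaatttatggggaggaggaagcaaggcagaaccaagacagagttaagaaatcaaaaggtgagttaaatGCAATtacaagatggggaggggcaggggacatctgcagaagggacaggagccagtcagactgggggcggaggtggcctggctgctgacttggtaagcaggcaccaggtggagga
Tat: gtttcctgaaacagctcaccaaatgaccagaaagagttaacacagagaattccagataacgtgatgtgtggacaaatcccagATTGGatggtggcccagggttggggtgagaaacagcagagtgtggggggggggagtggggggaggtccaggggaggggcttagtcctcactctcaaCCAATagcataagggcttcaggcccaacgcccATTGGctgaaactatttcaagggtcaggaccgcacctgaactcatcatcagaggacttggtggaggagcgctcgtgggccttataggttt
Hal: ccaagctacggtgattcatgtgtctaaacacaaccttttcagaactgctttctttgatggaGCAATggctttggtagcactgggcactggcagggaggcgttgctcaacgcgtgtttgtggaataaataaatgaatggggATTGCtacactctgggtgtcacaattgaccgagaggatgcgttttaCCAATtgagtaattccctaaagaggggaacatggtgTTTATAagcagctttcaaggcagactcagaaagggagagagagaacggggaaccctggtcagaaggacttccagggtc

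The motifs searched, each on both strands, were AAAGNNCA as a core of HNF4 sites and GCAAT as a core of C/EBP sites. Also searched were CCAAT for the box of that name, TATAAA for the TATA box and TGTTTNC for FOXA factors, with AGAACA for the glucocorticoid receptor and TGACGTCA for CREB. GCAAT and CCAAT share the letters CAAT, but no matches overlap in the sequences shown. They were chosen with the results known. Otc holds 1 match to AAAGNNCA, found in 19.6% of all 32851 windows, at -68 from the start site. Etnppl holds 2 matches to GCAAT, found in 26.4% of windows, at -211 and -64. Tat holds 3 matches to CCAAT, found in 37.4% of windows, at -168, -72 and -40. Hal holds 2 matches to GCAAT, 1 to CCAAT and, at -28, 1 to TATAAA, which is found in 13.6% of windows. These windows of Otc, Etnppl, Tat and Hal hold no match to the FOXA motif (20.5% of windows), the glucocorticoid receptor motif (19% of windows) or the CREB motif (1.79% of windows). RefSeq gives Etnppl a second start site, whose window (chr3:130617325-130617624, not shown) holds 1 match to GCAAT at -191 and 1 match to AAAGNNCA at -52, the motif also matched in Otc. The Etnppl window shown is the one at the start of the GENCODE gene. The window of Ass1 (chr2:31470020-31470319, not shown), whose RNA did not pass the test, holds 1 match to GCAAT at -209 and none to the other motifs.

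The first comparison set the old against the young control livers for these 10 genes. Otc, Asl, Etnppl and Tat were lower in the old controls, from 0.75-fold for Asl to 0.38-fold for Etnppl. Arg1 and Cps1 had lower means without passing the test, and Ass1, Hal, Sds and Gls2 overlapped the young livers with log2 differences between -0.19 and 0.03. So 4 of the 10 were called, all lower, where 22.8% of all genes tested were called and 8.66% were called lower. For 5 of the 10 the 3 old livers all lay below the 3 young ones, where 37.7% of all genes had groups that did not overlap and 18% had the old group lower. The median log2 difference was -0.42 over the 10 genes and 0.04 over all genes tested. As the 10 genes were chosen with earlier results of these data known, these shares and medians are a description only.

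**Figure D1:**
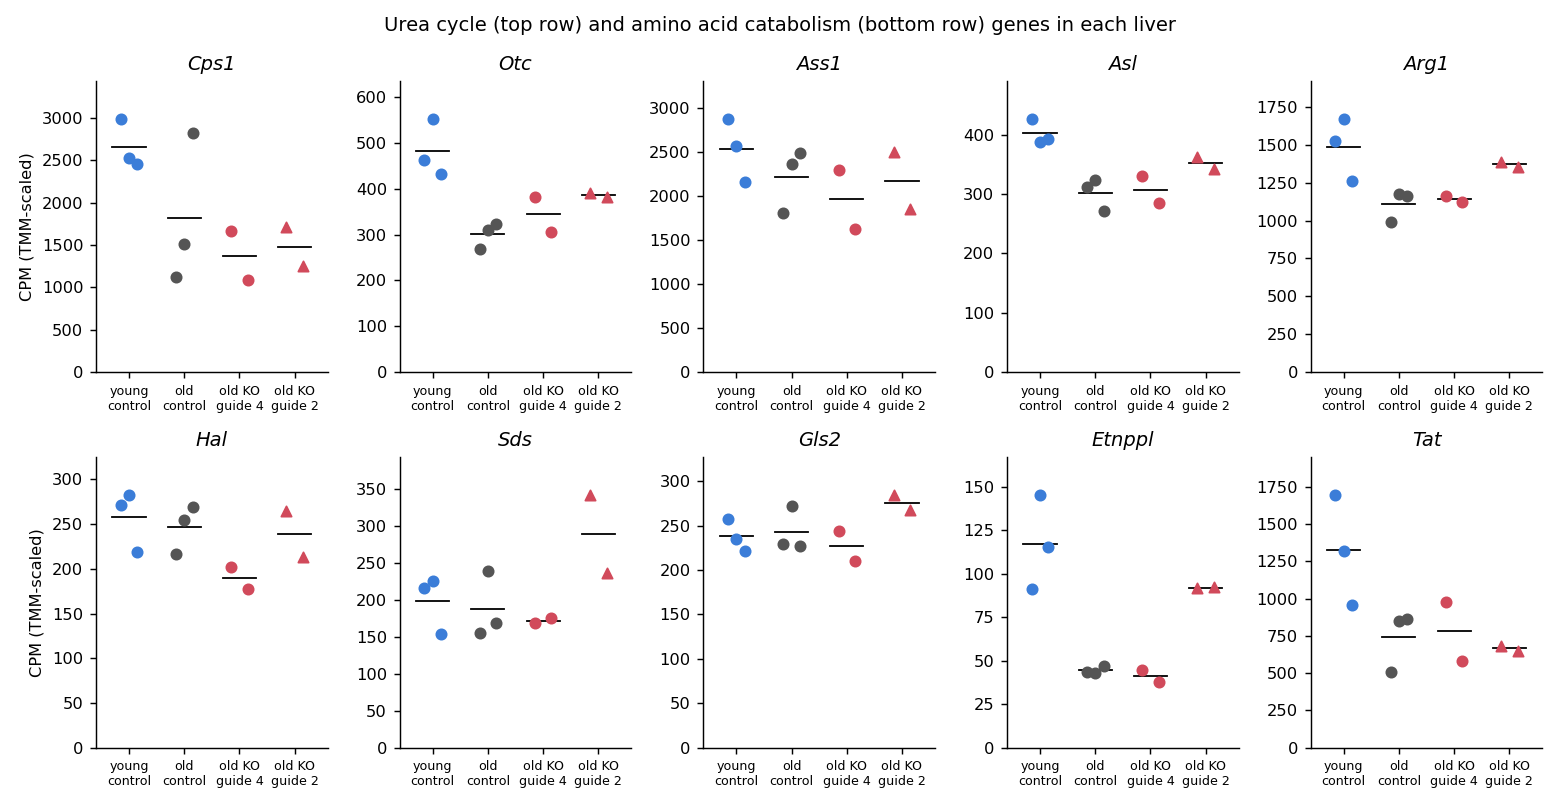
Level of each gene in each liver in CPM (TMM-scaled), for young controls, old controls and old knockout livers split by guide; points are livers (triangles: guide 2) and bars are group means. The 3 old controls lie below the 3 young livers for Otc, Asl, Arg1, Etnppl and Tat, and the Etnppl points of guide 2 (91.9 and 92.3 CPM) lie above those of guide 4 (44.6 and 38 CPM).

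Cps1 (chr1:67123026-67231259, GRCm38) was at 2990, 2533 and 2461 CPM in the young livers, 1121, 1508 and 2822 in the old controls, and 1661, 1092, 1710.5 and 1249 in the knockout livers. Old controls 1 and 2 lie far below every young liver, and old control 3 lies inside the young range. The group means were 2661 ± 287 (SD, n = 3) and 1817 ± 892 (SD, n = 3). The log2 difference with age was -0.55 (SE 0.30, adjusted p = 0.205). Without old control 3 it was -1.02 (adjusted p = 0.00741), so this library decides whether Cps1 passes.

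Otc (chrX:10252305-10321024) was at 463, 553 and 433 CPM in the young livers and at 269.85, 310.4 and 323 CPM in the old controls. All 3 old controls were below all 3 young livers. The knockout livers were at 383, 307, 392 and 382 CPM, with replicate 2 at the level of the old controls and the other 3 between the control groups. The young mean was 483 ± 62.3 and the old control mean 301 ± 27.8 CPM (SD, n = 3 each), and the log2 difference was -0.68 (SE 0.15, adjusted p = 0.0135). Otc was called under each of 8 other scalings, filters and tests. Leaving out young replicate 2 ended the call (-0.58, adjusted p = 0.0651).

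Ass1 (chr2:31470207-31520672), which makes argininosuccinate, was at 2879.9, 2568 and 2160.3 CPM in the young livers, 1812, 2368 and 2488 in the old controls and 2305, 1633, 2501 and 1857 in the knockout livers. The groups overlap throughout, and the log2 difference with age was -0.19 (SE 0.20, 95% interval -0.63 to 0.25). Asl (chr5:130011258-130029247), which cleaves argininosuccinate, was at 426, 387 and 393 CPM in the young livers, 312, 323 and 272 in the old controls and 331, 284, 363 and 342 in the knockout livers. Every old liver, control or knockout, was below every young one. The age difference of Asl was small and just past the threshold (log2 -0.41, SE 0.14, adjusted p = 0.0494). It missed the threshold without any 1 of the 6 control livers (adjusted p from 0.0595 to 0.136) and under 6 of 8 alternatives.

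Arg1 (chr10:24915221-24927484), the last enzyme of the cycle, was at 1523, 1671.5 and 1264 CPM in the young livers and 988, 1177 and 1164 in the old controls. The groups do not overlap, but the log2 difference of -0.42 (SE 0.16, adjusted p = 0.0768) missed the threshold. DESeq2 called it (-0.43, adjusted p = 0.0273). The knockout livers were at 1165, 1120.2, 1387 and 1356.5 CPM, with guide 2 inside the young range and guide 4 below it. Nags, the source of the Cps1 activator, was at 100.05, 97.3 and 88.5 CPM in the young livers, 63.5, 56.4 and 62.1 in the old controls and between 66.4 and 72.9 in the 4 knockout livers. Nags fell with age by 0.65 on the log2 scale (SE 0.11, adjusted p = 0.00783).

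Hal (chr10:93488768-93519304), which opens histidine breakdown by removing ammonia, was at 272, 283 and 219 CPM in the young livers, 217, 255 and 269 in the old controls and 202, 178, 264 and 213 in the knockout livers. The young and old control ranges nearly coincide, and the log2 difference was -0.06 (95% interval -0.44 to 0.31). Sds (chr5:120476526-120483932), which turns serine into pyruvate and ammonia, was at 215, 226 and 154 CPM in the young livers, 155, 238 and 169 in the old controls and 168, 175, 342 and 236 in the knockout livers. Its age difference was -0.08, with a wide 95% interval from -0.69 to 0.52. Gls2 (chr10:128194457-128210004) was the steadiest of the 10, at 257, 235 and 221 CPM in the young livers, 229, 272 and 227 in the old controls and 244, 210.5, 285 and 267 in the knockout livers. The age difference of Gls2 was 0.03 (95% interval -0.29 to 0.35). Sds overlaps Plbd2 and the antisense gene Gm15690 on the other strand, and Gls2 overlaps Spryd4. Whether reads were counted by strand is not given in the sources used here, so both genes carry that uncertainty. Spryd4 itself fell with age by 0.60 on the log2 scale (adjusted p = 0.0108) and was looked at only for this overlap.

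Etnppl (chr3:130617448-130637521), the phospholyase that splits phosphoethanolamine into ammonia, acetaldehyde and phosphate, differed most. It was at 91.4, 146 and 115 CPM in the young livers and at 43.5, 43.0 and 47.0 CPM in the old controls. The old controls hardly vary, and the lowest young liver is well above the highest of them. Its mean was 117 ± 27.1 CPM in young livers and 44.5 ± 2.20 CPM in old controls (SD, n = 3 each), and the log2 difference was -1.40 (SE 0.33, adjusted p = 0.0154). Etnppl was called under each of the 8 alternatives. The call was lost without young replicate 2 (-1.22, adjusted p = 0.0693) or without old control 2 (-1.38, adjusted p = 0.0567).

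Tat (chr8:109990437-109999803), the first step of tyrosine breakdown, was at 1697, 1322 and 955 CPM in the young livers, 505, 852.5 and 860.1 in the old controls, and 979, 584, 680.25 and 652 in the knockout livers. The old controls are below the young livers by a narrow gap, and young replicate 3 is close to them. Its log2 difference with age was -0.84 (SE 0.27, adjusted p = 0.0479). The threshold was missed under 7 of 8 alternatives. It was also missed without young replicate 1 (adjusted p = 0.160), young replicate 2 (0.120), old control 1 (0.113) or old control 2 (0.0873).

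**Figure D2:**
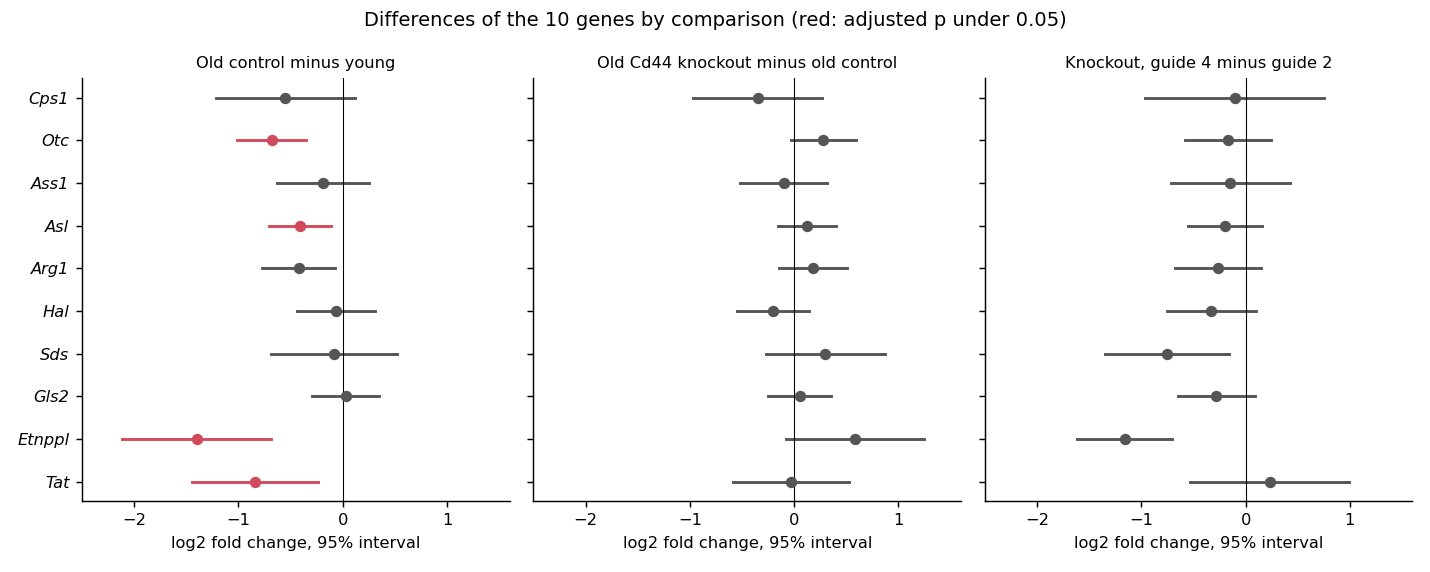
Log2 fold change of each gene with its 95% interval in 3 comparisons: old control minus young, old knockout minus old control, and guide 4 minus guide 2 within the knockout livers; red marks an adjusted p under 0.05. Otc, Asl, Etnppl and Tat are red with age, and none is red in the other comparisons.

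Where the library scaling is set matters for the smaller differences. The young livers had TMM factors of 0.823 to 0.897 and the old livers of 0.966 to 1.12. The median age difference over all genes was 0.04 with TMM, 0.03 with DESeq2 size factors, 0.15 with upper-quartile factors, 0.24 when scaled to hepatocyte markers and 0.34 with total counts alone. A scaling shifts all genes nearly alike, so by construction the median of the 10 genes minus that of all genes hardly moved (-0.44 to -0.45). The share of all called genes that were higher with age went from 62.0% with TMM to 77.6%, 86.7% and 91.6% with the last 3 scalings. Otc, Etnppl, Tat, Cps1, Arg1 and Asl had lower values with age under all 5, while Ass1, Hal and Sds changed sign. Ass1 was 0.022 and 0.11 and Hal 0.15 and 0.24 with hepatocyte markers and total counts, and Sds was 0.14 and 0.24.

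**Figure D3:**
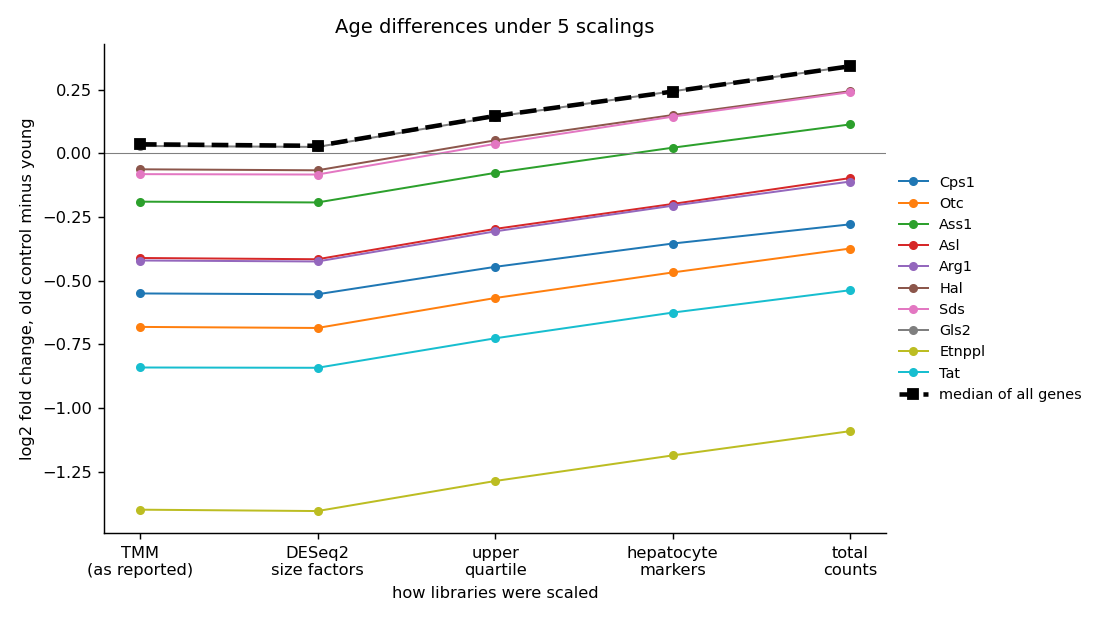
Log2 difference between old control and young livers for each gene (coloured lines) and the median of all genes tested (dashed) under 5 library scalings. The lines move up together with the median, from 0.04 with TMM to 0.34 with total counts; Otc and Etnppl stay lowest with Tat, and Gls2 follows the median.

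The liver is a mixture of cells, and a lower value in bulk RNA can come from fewer cells of a type or from less RNA per cell, which cannot be told apart here. The 10 hepatocyte markers (Alb, Ttr and others) were all abundant, none was called with age, and their median difference was -0.24. Their summed level was 124350 to 153530 CPM in the young livers, 107800 to 141520 in the old controls and 111990 to 115370 in the knockout livers. Beside the lower Otc, Asl, Etnppl and Tat, markers of other cells were higher in old than in young controls. Called higher were 7 of 9 Kupffer cell, 6 of 9 monocyte and macrophage, 8 of 10 endothelium, 5 of 8 stellate, 4 of 8 T cell, 4 of 7 B and plasma cell and 4 of 5 neutrophil markers tested. Of 6 erythroid and megakaryocyte markers 3 were called higher and 1 lower, and of 5 cholangiocyte markers 0 were called. Over all 13909 genes tested, 1967 were called higher with age and 1205 lower. Kupffer cell markers summed to 256 to 358 CPM in the young livers and to 492, 1564 and 938 in old controls 1 to 3. Old control 2 also stood apart in neutrophil markers, 270.5 CPM against 16.1 and 14.4 in the other old controls and 3.74 to 9.97 in the young livers, and in monocyte and macrophage markers, 572 against 116 and 178 CPM. Their part in the lower values of the enzymes was not tested.

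The second question was whether the 10 genes differ between old knockout and old control livers. None was called by edgeR (0 of 10, where 0% of all genes were called and 6.59% had an unadjusted p under 0.05), and none of the 10 had an unadjusted p under 0.05. DESeq2 called 0 of the 10 and 8 genes in all. The ranges of both groups overlap for every one of the 10, where 6.1% of all genes had groups that did not overlap. The differences nearest the threshold were Otc at 0.28 (95% interval -0.03 to 0.59, adjusted p = 0.758) and Etnppl at 0.58 (95% interval -0.08 to 1.25, adjusted p = 0.764). Cps1 was at -0.35 (95% interval -0.97 to 0.27), and at 0.12 without old control 3. The narrowest intervals were those of Asl (-0.15 to 0.40) and Gls2 (-0.25 to 0.35). Glul, the pericentral counterpart of Gls2, was at 967, 1091 and 1946 CPM in the old controls and at 658, 977, 827 and 798 in the knockout livers (log2 -0.71, adjusted p = 0.744). These comparisons pool both guides. With guide 2 alone, 2 of the 10 had an unadjusted p under 0.05 by edgeR, Etnppl and Sds, where 979 of 13909 genes did. With guide 4 alone 0 of the 10 did, where 544 of 13909 genes did. None of the 10 was called with either guide.

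Set against the young livers, the old knockout livers had 1 of the 10 called lower, Tat (log2 -0.87, SE 0.25, adjusted p = 0.0481), where 11.6% of all genes were called and 4.97% were called lower. This comparison shares its young livers with the age comparison. All but 1 of the 7 fits with a liver left out lost Tat (adjusted p from 0.0680 to 0.159), the exception being the fit without knockout replicate 1. For Cps1, Otc and Asl every knockout liver was below every young liver, with log2 differences of -0.90 (adjusted p = 0.0586), -0.40 (0.0791) and -0.29 (0.141). Groups did not overlap for 40% of all genes, and for 18.8% the knockout group was the lower. Etnppl was at -0.82 (adjusted p = 0.0879), with its guide 2 livers inside the young range. Sds and Gls2 had slightly higher values (0.22 and 0.08), within their spread.

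Within the knockout livers, the guides were compared in a fit with a coefficient for each guide and 2 livers each. Etnppl was at 44.6 and 38 CPM with guide 4 and at 91.9 and 92.3 CPM with guide 2. The guide 4 livers lie at the level of the old controls (43.0 to 47.0 CPM), and the guide 2 livers at the lower edge of the young range (91.4 to 146 CPM). The log2 difference, guide 4 minus guide 2, was -1.16 (SE 0.20), with an adjusted p of 0.224 by edgeR, so Etnppl was not called. No member was called, where 0.0216% of all genes were. A fit on the knockout livers alone called Etnppl (adjusted p = 0.0321), where 31 of 13031 genes were called in all. DESeq2 called it too (adjusted p = 0.000347), where 73 of 13909 genes were called. In both, Etnppl was the only one of the 10. Against the old controls Etnppl was at 1.05 with guide 2 (95% interval 0.65 to 1.45, adjusted p = 0.101) and at -0.11 with guide 4 (95% interval -0.52 to 0.30, adjusted p = 0.986), where 0.0216% and 0% of all genes were called. Against the young livers the value with guide 4 was -1.51 (adjusted p = 0.0290), the only one of the 10 called there, where 0.259% of all genes were called and 0.144% were called lower.

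Sds was the next widest apart between the guides, at 168 and 175 CPM with guide 4 and 342 and 236 with guide 2 (log2 -0.75, adjusted p = 0.900). Asl, Arg1, Hal, Sds, Gls2 and Etnppl had both guide 4 livers below both guide 2 livers. That is 6 of 10, where 38.6% of all genes had guides that did not overlap and 20.4% had guide 4 lower. Each guide has only 2 livers. Knockout replicate 2 (guide 4) had the lowest value of the knockout livers for 9 of the 10 genes, Sds being the exception, and replicate 3 (guide 2) the highest for 8. Replicate 2 also had the highest summed Kupffer cell markers, 804 CPM against 462 to 554 in the other 3, and the highest erythroid and megakaryocyte markers, 1394 against 640 to 756 CPM. The 5 cholangiocyte markers tested all had lower values with guide 4 (median log2 -0.82, none called), with sums of 95.5 and 80.8 CPM against 119 and 165 with guide 2. The part of these cells in the low values was not tested.

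Per kilobase of exon, which allows levels to be set between genes, Ass1 was highest in the young livers at 1495 ± 213 CPM per kilobase (SD, n = 3). It was followed by Arg1 (1006 ± 140), Tat (558 ± 156) and Cps1 (479 ± 51.7), then Sds (154 ± 30.2), Asl (135 ± 7.14), Otc (114 ± 14.7), Gls2 (92.5 ± 7.03), Hal (48.5 ± 6.37) and Etnppl (26.1 ± 6.04). The livers of Tat and Cps1 overlap, as do those of Sds with Asl and Asl with Otc. In the old controls Ass1 (1311 ± 213) and Arg1 (751 ± 71.3) led again. Cps1 (327 ± 161) and Tat (311 ± 85.3) were level, and Gls2 (94.3 ± 9.77) stood above Otc (71.0 ± 6.55) with no overlap, the reverse of their young order. That order, like the others per kilobase, rests on the merged exons of a gene's protein-coding transcripts, 2573 bases for Gls2 and 4241 for Otc. In CPM the old control mean of Otc stayed above that of Gls2 (301 against 243). Etnppl was last at 9.90 ± 0.49 CPM per kilobase. In the knockout livers (n = 4) the order was Ass1 (1223), Arg1 (851), Tat (305), Cps1 (257), Sds (179), Asl (111), Gls2 (97.8), Otc (86.3), Hal (40.3) and Etnppl (14.8).

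Over the 10 livers the SD of log2 CPM was largest for Etnppl (0.71), Cps1 (0.55) and Tat (0.54) and smallest for Gls2 (0.14). The genes whose centred log2 CPM lay closest to these 3, by root mean square difference over the 10 livers, were taken as a description. Because they were picked for likeness over these same livers, a shared pattern follows from the choice and is no separate result. For Etnppl they were Gstm1 (0.246), Ces2d-ps (0.274) and Ugt2b5 (0.306). Gstm1, a glutathione transferase, was at 5349, 10167 and 4666 CPM in the young livers and 3207, 2819.7 and 3264.5 in the old controls. It was at 3009.5 and 2794.5 CPM with guide 4 and 6323.5 and 5342 with guide 2. For Cps1 they were Gfm1 (0.138), Uap1 (0.142) and 2610020C07Rik (0.147), each high in old control 3. For Tat they were Ywhag (0.178), Krt8 (0.188) and Alg2 (0.197).

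**Figure D4:**
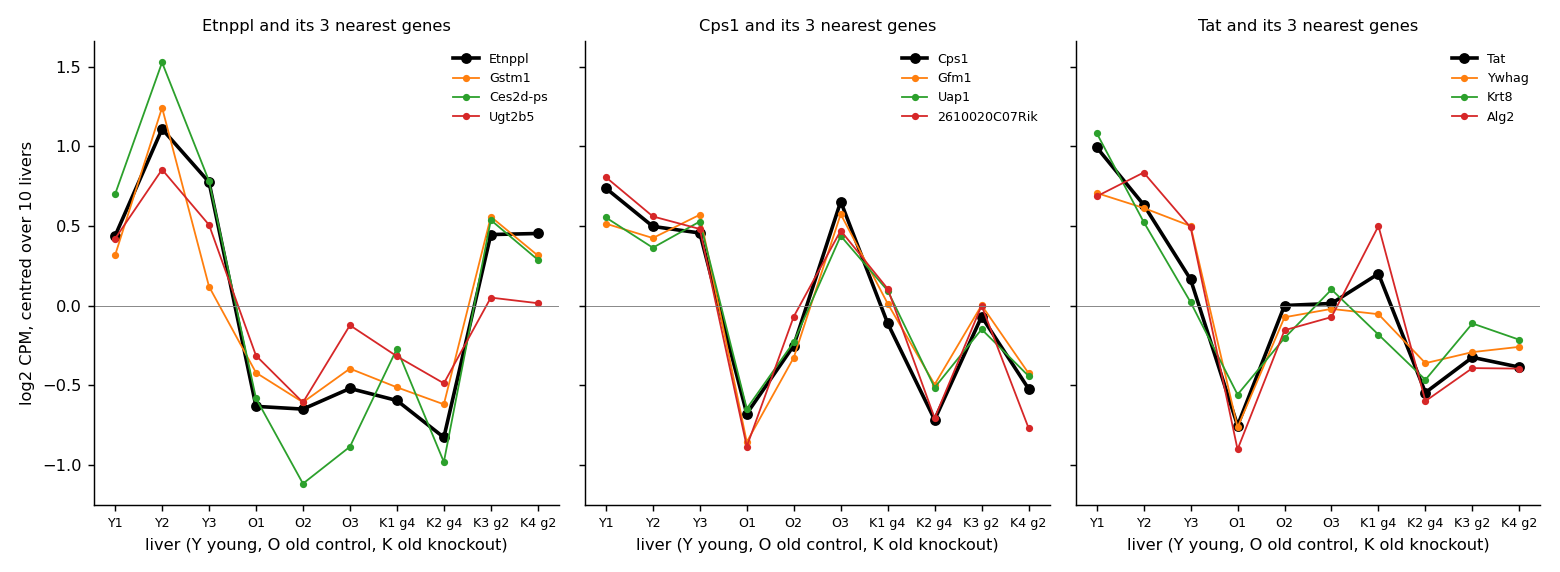
Log2 CPM centred over the 10 livers for Etnppl, Cps1 and Tat (black) and the 3 genes nearest to each, by liver (Y young, O old control, K old knockout with its guide). Etnppl and Gstm1 are high in the young and the guide 2 livers, and Cps1 and its nearest genes are high in the young livers and in old control 3. The nearest genes were chosen for this likeness.

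The rest of the pathway was read from 12 lists of enzymes and carriers around the 10 genes, which hold 98 genes, 97 of them tested. With age 12 were called lower and 3 higher, with a median log2 difference of -0.18. These are 15 of 97 tested, where 22.8% of all genes were called and 8.66% were called lower. This split turns with the scaling: upper-quartile factors gave 7 lower and 5 higher, hepatocyte markers 2 lower and 8 higher, and total counts 1 lower and 12 higher. It also moves with single livers, from 1 lower and 0 higher without young replicate 2 to 35 and 5 without old control 3. The other 4 control livers left out in turn gave 2 to 7 lower and 1 to 3 higher. No gene of these lists was called between knockout and old control livers or between guides, and 9 were called lower and 0 higher between knockout and young livers, where 11.6% of all genes were called and 4.97% were called lower. That count was 1 lower and 5 higher with hepatocyte markers, 1 and 10 with total counts, 6 and 1 with upper-quartile factors, 21 and 1 with DESeq2 and 31 and 4 in the fit on both groups alone. It was 0 without any 1 young liver or without knockout replicate 4, 1 without knockout replicate 2 or 3, and 7 without replicate 1.

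The list counts that follow are for age with TMM scaling, where 22.8% of all genes were called and 8.66% were called lower. As given above, few genes of these lists were called lower with hepatocyte-marker or total-count scaling. Of the urea cycle partners only Nags was called, 1 of 10. In serine, glycine and threonine catabolism 3 of 12 tested were called lower with TMM scaling: Gldc of the glycine cleavage system (-0.73, adjusted p = 0.0440), Glyctk (-0.57, 0.0332) and Srr (-0.54, 0.0461). Of 9 genes around Gls2 in glutamine, glutamate and alanine metabolism, 2 were called lower and 1 higher. The mitochondrial glutamate carrier Slc25a22 (-0.85, 0.0200) and the alanine transaminase Gpt2 (-0.50, 0.0361) fell. In the methionine and cysteine list Cth, which makes cysteine (-0.75, 0.0192), and Ahcy (-0.66, 0.0270) fell. Single genes were called lower in the lists of tryptophan (Kmo, -0.73), lysine (Aass, -0.72) and branched-chain catabolism (Hibadh, -0.47). In the ethanolamine phosphate route of Etnppl, 1 of 7 was called, the ethanolamine kinase Etnk1 (-0.58, adjusted p = 0.0240), which makes the substrate of Etnppl. The proline oxidase Prodh rose (0.55, 0.0256), as did the amino acid transporter Slc7a8 (2.21, 0.0103). No gene was called in the histidine list around Hal (0 of 5) or in the tyrosine and phenylalanine list around Tat (0 of 7).

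**Figure D5:**
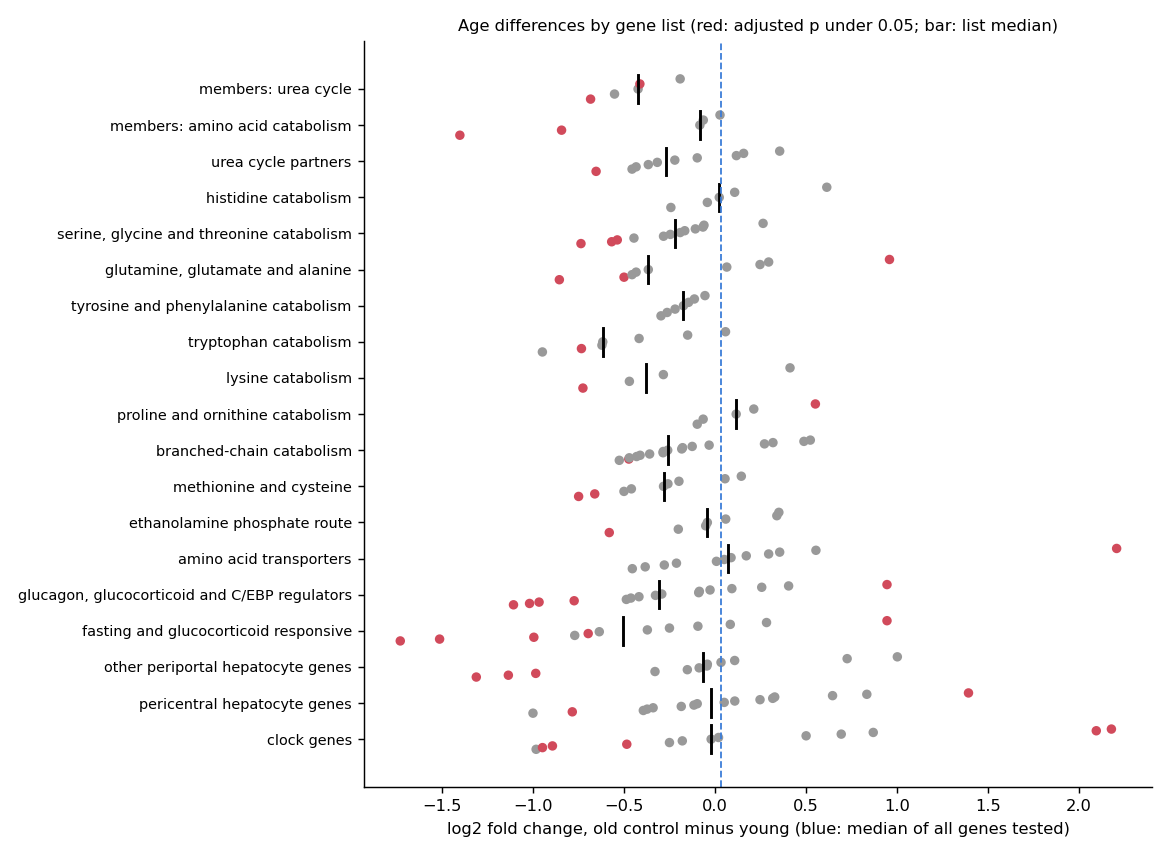
Log2 difference between old control and young livers for each gene tested in each list, with TMM scaling; red points have an adjusted p under 0.05, bars are list medians and the dashed line is the median of all genes (0.04). Among the enzyme and carrier lists below the 10 genes, 12 genes are red on the left and 3 on the right, a split that total-count scaling turns to 1 and 12.

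Among 16 regulators linked to glucagon, glucocorticoids and C/EBP, 4 were called lower with age and 1 higher with TMM scaling. The shares to read these and the next counts against are again 22.8% of all genes called and 8.66% called lower. Foxa3 (-1.11, adjusted p = 0.00936), Prox1 (-1.02, 0.0192) and Hnf4a (-0.96, 0.0147), transcription factors of hepatocytes, were lower, and the coactivator Ppargc1a was higher (0.95, 0.0269). Of 12 genes known to respond to fasting and glucocorticoids, 4 were called lower and 1, again Ppargc1a, higher. Angptl4 (-1.73, 0.00772), Fkbp5 (-1.51, 0.00798) and Lpin1 (-0.99, 0.0152) had the largest differences. The 12 other periportal genes had a median log2 difference of -0.06, with 4 higher and 8 lower values. Of them 3 were called, all lower: Cdh1 (-1.31, 0.0455), Cyp2f2 (-1.13, 0.0350) and Apoa4 (-0.98, 0.0375). Their relation to the lower Otc, Asl, Etnppl and Tat was not tested.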

How the data were processed

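Polyadenylated RNA of 10 whole livers was measured by sequencing. What the authors deposited is a table of unnormalized counts, in which each row is a gene symbol and each column a liver. The submitters' processing notes name FastQC 0.11.8, Trim Galore 0.4.4, STAR 2.5.3a, HOMER and mm10. Which gene annotation was counted, and whether by strand, is not given in the sources used here.

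Groups, guides and ages follow the labels. Counts were fitted in edgeR 4.0.16 (R 4.3.3) with TMM factors, the filterByExpr filter (minimum count 10, minimum total 15) and the quasi-likelihood test over all 10 livers, with 1 coefficient per group or, for guides, per guide. Adjustment was by Benjamini-Hochberg over 13909 genes. Standard errors are the log2 fold change divided by the square root of F, and intervals cover 95%. Log2 CPM used a prior count of 2. Exon lengths and positions are from GENCODE M21 on GRCm38, where 97.1% of symbols matched. The fit was also run on simulated counts with few changed genes, up and down alike, which does not test the choice of scaling.

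The members and the 29 gene lists, which hold 268 entries, were chosen with earlier results of these data known. The text names all 10 members. Of each other list it names at most 4 called genes per comparison, those with the largest absolute log2 fold change and whose group mean reached 1 CPM in either group, given here in selection; 1 of them is not reported here. It also names Cd44, Glul and Nags, and the 3 genes nearest to each of the 3 most variable members. The alternatives were DESeq2 1.42.0 (size factors and test), upper-quartile and hepatocyte-marker scaling, total counts (added after seeing the data), limma 3.58.1 (voom), no filter, fits on the compared groups only, each guide alone, and leaving out each liver.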

Additional observations from a re-analysis of the deposited data

Results flagged for a closer look

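Otc in the knockout livers was at 383, 307, 392 and 382 CPM. Replicate 2, the lowest, lies far from the other 3, which agree closely: its gap to the nearest of them is 0.891 of the whole range of the group. The 10 members were screened in this way in the knockout group, the only group of 4, and chance alone singles out about 1 in 20 such groups. Without this replicate the log2 difference of Otc from the old controls was 0.36.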

How the results depend on the processing

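Otc and Etnppl were called lower with age under all 8 alternatives that kept every liver. The members called with age were 4 as reported and 2 (Otc and Etnppl) with upper-quartile, hepatocyte-marker or total-count scaling, with voom, without the filter and in the fit on both groups alone. They were 3 (Otc, Asl and Etnppl) with DESeq2 size factors, 5 (Otc, Asl, Arg1, Etnppl and Tat) with DESeq2, and 0 to 4 with a liver left out. The cause was not tested. Over all genes 3172 of 13909 were called as reported, and 3226, 3510 and 4226 with upper-quartile, hepatocyte-marker and total-count scaling. Voom gave 2449, DESeq2 size factors 3142 and DESeq2 3924, with 2816 of 18730 called without the filter. The fit on both groups alone called 1192 of 13386. Without young replicate 2, 0 members and 396 of 14167 genes were called, and without old control 3, 4 members and 5327 of 14116. Between knockout and young livers 1 was called as reported, and 0 with upper-quartile, hepatocyte-marker or total-count scaling and voom. The count was 4 with DESeq2 (2803 of 13909 genes in all) and 3 in the fit on both groups alone (4223 of 13601 genes). It was 0 to 1 with a liver left out. Between guides 0 were called as reported, 1 (Etnppl) with DESeq2 and in the fit on the guides alone, and 0 with a liver left out; between knockout and old control 0 were called throughout. A lone guide liver was assumed to vary like the other groups. No paired analysis was possible because replicates are numbered here only by sample order. The summed level of the 10 genes in the young livers was 9704.9 CPM with TMM factors and 8318 with total counts.

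Some differences changed sign, among them the 0.58 of Etnppl for the knockout. With age these were Hal (0.050) and Sds (0.037) with upper-quartile factors, Ass1 (0.022), Hal (0.15) and Sds (0.14) with hepatocyte markers, and Ass1 (0.11), Hal (0.24) and Sds (0.24) with total counts. Knockout against young with total counts gave Ass1 0.027, Asl 0.032, Arg1 0.082 and Hal 0.056. Guide 4 alone against old control gave Sds -0.13, Gls2 -0.094, Etnppl -0.11 and Tat 0.079. With a liver left out the ranges crossing 0 were, with age, Hal -0.17 to 0.019, Sds -0.29 to 0.034 and Gls2 -0.062 to 0.084; for the knockout, Cps1 -0.60 to 0.12, Gls2 -0.0089 to 0.14 and Tat -0.24 to 0.093; between guides, Cps1 -0.44 to 0.17, Ass1 -0.42 to 0.085 and Tat -0.19 to 0.56; and for knockout against young, Sds -0.043 to 0.34.

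Over all genes tested, 3172 genes were called with age and 1192 in the fit on both groups alone, and 396 to 5327 with a liver left out. Knockout against young gave 1614, and 2663 with hepatocyte markers, 3585 with total counts, 2803 with DESeq2, 969 with voom, 4223 in the fit on both groups alone and 56 to 1652 with a liver left out. The share of these that were higher was 57.2% as reported and 75.6%, 89.0% and 92.9% with upper-quartile, hepatocyte-marker and total-count scaling. Knockout against old control gave 0, and 8 with DESeq2, 3 with guide 2 alone and 0 to 3 with a liver left out. The guides gave 3, and 73 with DESeq2, 10 without the filter, 31 in the fit on the guides alone and 0 with a liver left out.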

Other observations

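Of 13 clock genes 5 were called with age, 2 higher and 3 lower, where 22.8% of all genes were called and 8.66% were called lower. Dbp was at 13.4, 2.64 and 24.7 CPM in the young livers and at 86.4, 71.6 and 26.7 in the old controls (log2 2.18, adjusted p = 0.0263 by edgeR), and Per3 rose alike (2.09, 0.0133). Arntl (-0.95, 0.0318) and Cry1 (-0.89, 0.0129) fell. The hour at which livers were taken is not given in the sources used here, and several of the 10 enzymes are known to vary over the day; the part of this in their values was not tested. Of 16 pericentral genes 2 were called with age, to be read against the same shares. The Wnt target Nkd1 rose (1.39, 0.00819) and Aldh1a1 fell (-0.78, 0.0184).

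Ratios between members were looked at after their values were seen. Per kilobase, the log2 ratio of Ass1 to Cps1 was 1.52 to 1.73 in the young livers, 2.40 and 2.36 in old controls 1 and 2, and 2.18 to 2.29 in the 4 knockout livers. Old control 3, at 1.53, was the only old liver within the young range. The log2 ratio of Gls2 to Glul was -2.98 in old control 3, the lowest of all 10 livers.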
